A study of Zea mays with 6 samples.

Results

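Transcripts of the translation initiation and elongation factors were measured in maize (Zea mays) leaves on Affymetrix maize genome arrays, in which a set of short probes (a probe set) reports each transcript. Probe sets were taken where the single gene symbol of the platform annotation, an NCBI synonym of it, or a gene title of the study names an initiation factor, elongation factor 1 alpha, beta, gamma, 2 or Tu, a release factor or a poly(A)-binding protein. The names matched 35 of 17734 probe sets. Of these, 32 were among the 17621 probe sets that are not array controls, and 3 were control probe sets for elongation factor 1 alpha (EF1a). By symbol or synonym 26 of the 32 were found, and 6 by title alone. The titles come from a table of genes that the study selected on these same arrays, so these 6 are not independent evidence of a direction.

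The 32 probe sets comprised 17 for elongation factor 1A (eEF1A), 1 for elongation factor 2 (EF2), 7 for the eIF4 group, 3 for eIF1, eIF3 and eIF5, 3 for eIF5A and 1 for an organelle-type initiation factor. No probe set matched the beta or gamma subunit of elongation factor 1, EF-Tu, a release factor, a poly(A)-binding protein, eIF2 or eIF6. A mean signal of at least 64, a log2 signal of 6, was reached by 28 of the 32 and by 10383 of the 17621. The NCBI table linked 27 of the 32 to 14 genes. The eEF1A genes elfa3 and elfa2 lie on chromosome 6 of assembly Zm-B73-REFERENCE-NAM-5.0 with 1 listed gene between them, which is not protein coding, and elfa5 follows with 30 listed genes between it and elfa2. EF1A (LOC542581) lies on chromosome 9. A suffix that marks probes shared between transcripts was carried by 17 of the 32 probe sets and by 12 of the 17 for eEF1A, so signals of near-identical eEF1A copies cannot be told apart.

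Translation starts when eIF4E binds the cap at the 5′ end of an mRNA and eIF4A, an RNA helicase helped by eIF4B, unwinds the leader, while eIF1, eIF3 and eIF5 work on the small ribosomal subunit as it searches for the start codon. eEF1A then brings each aminoacyl-tRNA to the ribosome, EF2 moves the ribosome along by a codon, and eIF5A helps at stretches that are slow to translate. Plants also carry a second cap-binding protein, eIFiso-4E. Genes of cytosolic translation are best known for high expression in young, growing tissue.

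Leaves came from field plots of DKC6575, a variety with the MON810 event (a Cry1Ab gene driven by the cauliflower mosaic virus 35S promoter), and of its near-isogenic non-GM variety Tietar. All plots were fully irrigated until 6 leaves had formed. The T1 control was sampled at 8 leaves and the T2 control at silking, both at 100% field capacity. The T2 drought leaves were sampled at silking from a plot at 0% field capacity, that is, left without irrigation. There was 1 array for each variety and condition, 6 in all, and each irrigation level was 1 plot, so plot and treatment cannot be told apart.

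Signals are linear array intensities, all 6 arrays having a 2% trimmed mean of about 500.2 and medians of 120 to 142. On the log2 signals, limma tested the difference that the varieties had in common, each variety serving as a replicate, which left 2 residual degrees of freedom. A difference counted as a rise or a fall at an adjusted p under 0.05 over all 17621 probe sets. The p-values therefore rest on how alike the changes between conditions were in the varieties, and on limma's prior variance at that signal. They do not measure the spread between plants or plots of a variety. Fewer cells of a type cannot be told apart from less RNA per cell. Of 22 probe sets listed as leaf markers, 18 reached the signal of 64, and their summed signal ran from 119286 to 218565 across the arrays. The list was matched by name and also holds probe sets for PDK1 and PDK2 (pdlk1 and pdlk2). These are pyruvate dehydrogenase kinases rather than leaf markers, and all counts and medians of the list include them. In what follows the signal of DKC6575 is given first, and that of Tietar second.

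**Figure D1:**
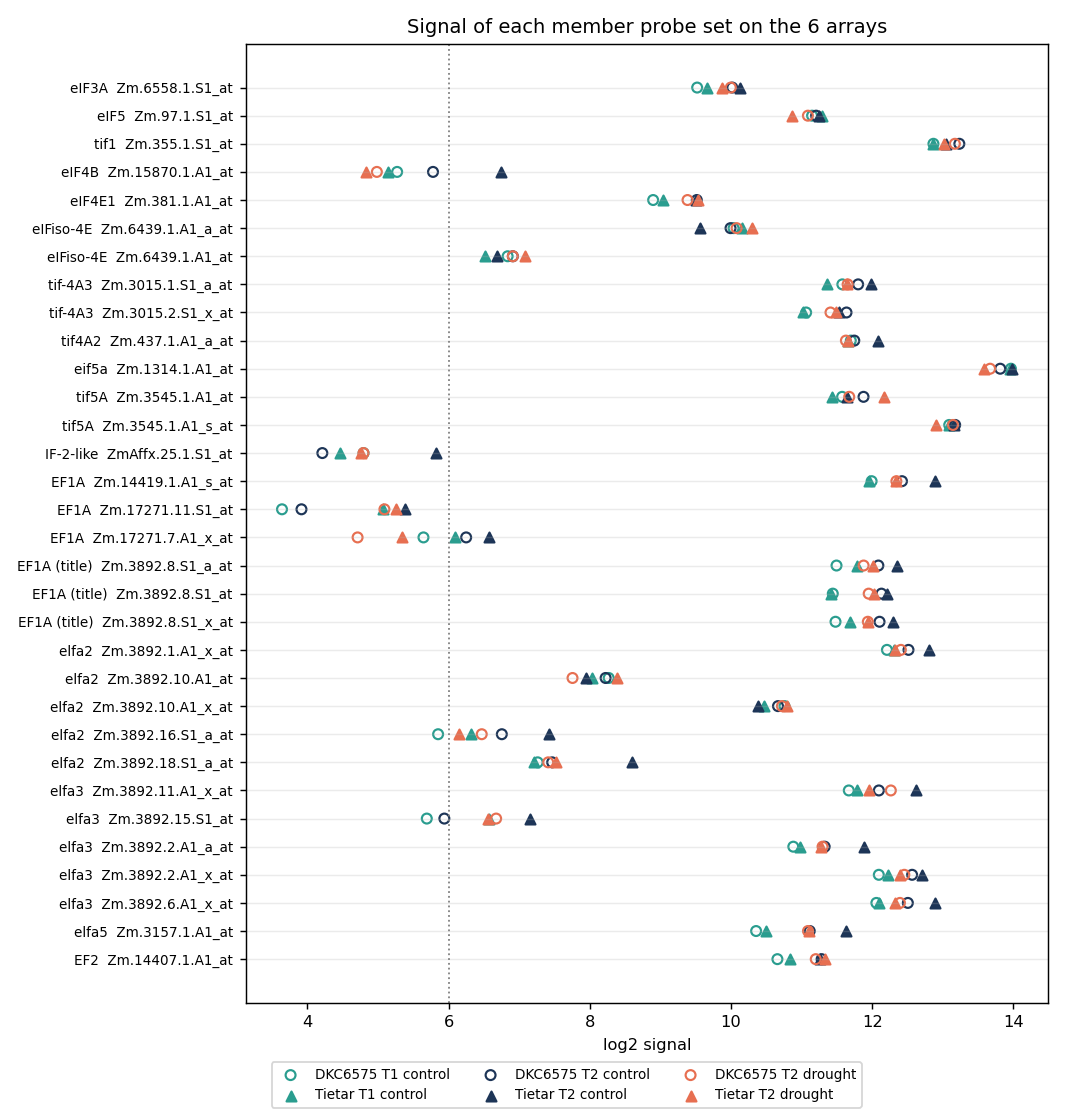
Log2 signal of each of the 32 probe sets on the 6 arrays, with open circles for DKC6575, filled triangles for Tietar and colours for the condition. The dotted line is a log2 signal of 6, which 4 of the 32 did not reach on average. Heights of different probe sets are not comparable, since each has its own probes.

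Between 8 leaves and silking under full irrigation, 12 of the 32 probe sets rose and 0 fell. Of all probe sets, 6.23% rose and 3.37% fell. Brighter probe sets were called more often in both directions, and most of the 32 were bright. At a mean log2 of 6 or more, 974 of 10383 rose (9.38%) and 570 fell. At 10 or more, 359 of 2710 rose (13.2%) and 319 fell, and at 11 or more, 143 of 1337 rose (10.7%) and 182 fell. The risers among the 32 were 8 of the 17 for eEF1A, the 1 for EF2 and 3 of the 14 for initiation factors. Several of them read the same gene or sequence, and with 1 probe set per gene 7 of 17 rose. At an unadjusted p under 0.05, 19 of the 32 were higher and 0 lower, beside 14.5% and 9.51% of all probe sets. The median log2 difference was 0.48 over the 32, against 0.04 over all probe sets, and it was 0.40 in DKC6575 and 0.49 in Tietar. For 23 of the 32, both T2 controls lay above both T1 controls, which held for 28.7% of all probe sets. The calls rest on limma's prior variance following the signal: without this trend, limma called 0 of the 32 and 0 of all 17621 probe sets. Without it and with dim probe sets left out, 7 of the 28 members tested rose and 0 fell, where 8.03% of the 10383 probe sets tested rose and 3.61% fell. They also rest on both T1 arrays, since leaving out either the DKC6575 or the Tietar T1 control array left 0 of the 32. Over all probe sets these refits called 0.829% and 1.36% higher and 0.272% and 0.352% lower, and the 12 differences ran from 0.40 to 1.00 and from 0.52 to 0.89.

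Among the members found by symbol or synonym, 8 of 26 rose, and among those found by title alone, 4 of 6. Of the 17 members that the study's table, as held here, does not list, 5 rose.

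**Figure D2:**
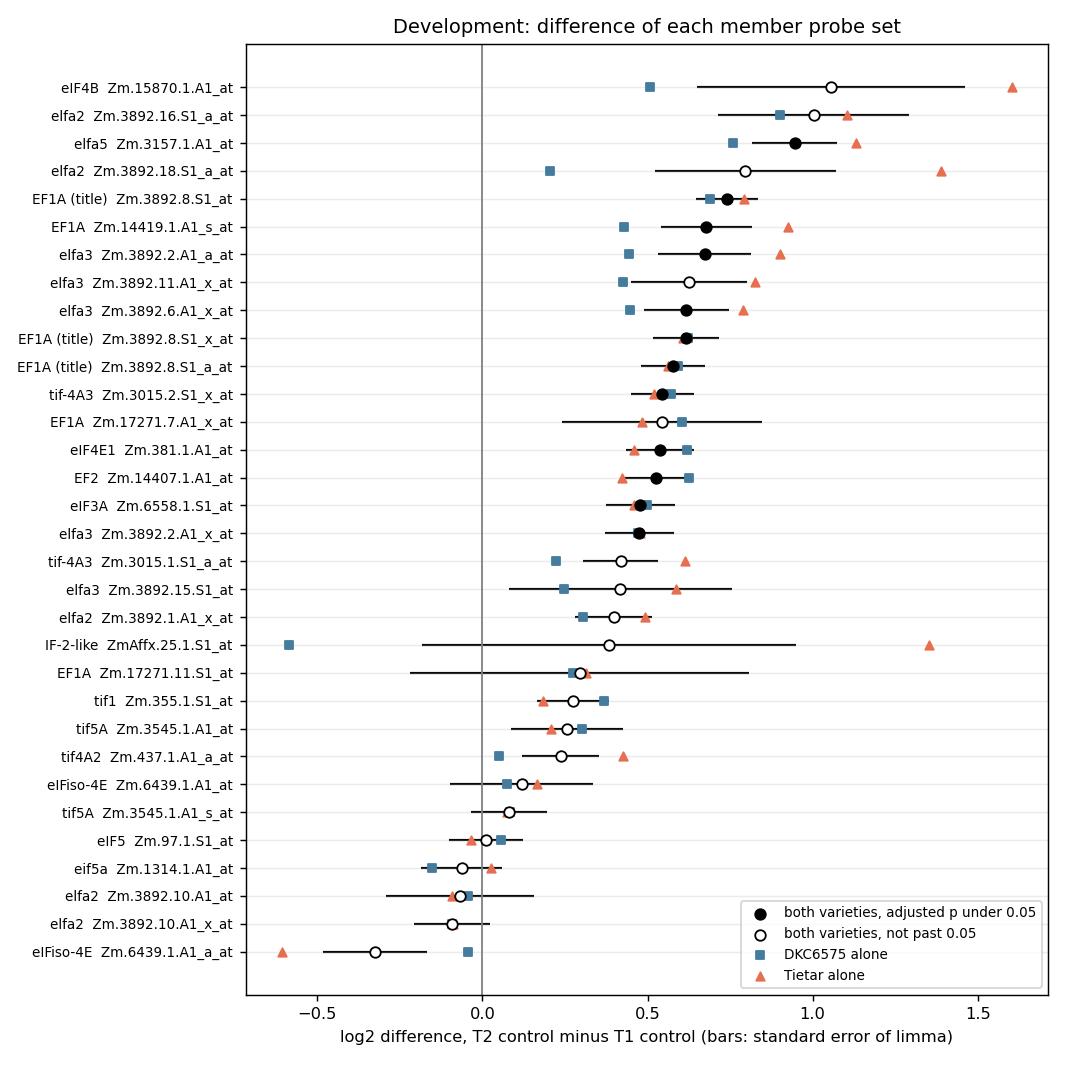
Log2 difference, T2 control minus T1 control, of each of the 32 probe sets. Circles with bars give the difference common to both varieties with its standard error, filled where the adjusted p was under 0.05, and squares and triangles give DKC6575 and Tietar alone. The 12 filled circles all lie to the right of 0, between 0.47 and 0.95.

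The cap-binding protein eIF4E1 (Zm.381.1.A1_at, chromosome 3) had signals of 477 and 527 at T1 control, 732 and 723 at T2 control, and 668 and 744 at T2 drought. Both T1 controls lay below the other 4 arrays. The rise was 0.54 ± 0.10 (log2, SE; limma adjusted p = 0.018), or 1.45-fold. The other cap-binding protein, eIFiso-4E (chromosome 5), had signals of 1050 and 1144, 1019 and 751, and 1082 and 1261 for the same conditions on its brighter probe set (Zm.6439.1.A1_a_at). Here the Tietar T2 control was the low array. The difference over development was -0.32 (limma adjusted p = 0.26), and both T2 controls lay below both T1 controls. It was the 1 member of the 32 with this order, which 22.2% of all probe sets showed. Without the DKC6575 T2 control it passed as a fall, at -0.63 (limma adjusted p = 0.012). The other eIFiso-4E probe set (Zm.6439.1.A1_at) differed by 0.12 (adjusted p = 0.80), so they gave differences of opposite sign, neither past the threshold.

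Of the probe sets for tif-4A3, an eIF4A gene on chromosome 6, Zm.3015.2.S1_x_at gave 2140 and 2071 at T1 control, 3181 and 2966 at T2 control, and 2718 and 2864 at T2 drought. The T1 pair lay below the other arrays, and the rise was 0.54 ± 0.09 (log2, SE; limma adjusted p = 0.013). The other probe set of the gene, Zm.3015.1.S1_a_at, differed by 0.42 (adjusted p = 0.062). For tif4A2 (Zm.437.1.A1_a_at, chromosome 5), the difference was 0.24 (adjusted p = 0.26). The probe set for eIF4B (Zm.15870.1.A1_at) was dim, with signals of 38.6 and 35.3, 54.9 and 107, and 31.7 and 28.5. The Tietar T2 control stood above the rest, and the difference of 1.06 ± 0.41 (log2, SE) did not pass (adjusted p = 0.16).

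In the group of eIF1, eIF3 and eIF5, the probe set for eIF3A (Zm.6558.1.S1_at, chromosome 3), named for a subunit of eIF3, rose. Its signals were 734 and 811 at T1 control, 1037 and 1115 at T2 control, and 1022 and 934 at T2 drought. The T1 arrays were the lowest pair, and the rise was 0.48 ± 0.11 (log2, SE; limma adjusted p = 0.030). For tif1 (Zm.355.1.S1_at, chromosome 7), an eIF1 gene that helps select the start codon, signals ran from 7418 to 9629 and the difference was 0.27 (adjusted p = 0.17). For eIF5 (Zm.97.1.S1_at, chromosome 4), which triggers GTP hydrolysis at the start codon, the difference was 0.01, with a 95% interval from -0.25 to 0.27.

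None of the 3 eIF5A probe sets passed the test. The gene eif5a (Zm.1314.1.A1_at, chromosome 2) had signals of 15973 and 15862 at T1 control, 14386 and 16140.0 at T2 control, and 13024 and 12289 at T2 drought. The T1 and T2 controls overlapped, with a difference of -0.06 and a 95% interval from -0.35 to 0.22. The probe sets of tif5A (chromosome 7) differed by 0.26 (limma adjusted p = 0.42) for Zm.3545.1.A1_at and by 0.08 (adjusted p = 0.74) for Zm.3545.1.A1_s_at. The organelle-type factor, titled as similar to IF-2 (ZmAffx.25.1.S1_at, chromosome 2), had signals of 18.5 to 56.3, below the level of 64 on every array, and a difference of 0.38 ± 0.57 (log2, SE; adjusted p = 0.75).

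The 17 eEF1A probe sets had a median difference of 0.62 over development. The 8 that rose were the 1 for elfa5, 3 of the 5 for elfa3, 1 of the 3 for EF1A (LOC542581) and all 3 known by title only. Those 3 read the same sequence, 3892.8, in the cluster 3892 that also holds the elfa2 and elfa3 probe sets. Zm.3892.2.A1_a_at and Zm.3892.2.A1_x_at of elfa3 likewise share a sequence, so the 8 are not independent readings. None of the 5 for elfa2 passed. The largest rise among the 8 was that of elfa5 (Zm.3157.1.A1_at). Its signals were 1310 and 1450 at T1 control, 2217 and 3177 at T2 control, and 2180 and 2192 at T2 drought. Its T1 arrays were the lowest pair and the Tietar T2 control was the highest array. The rise was 0.95 ± 0.13 (log2, SE; limma adjusted p = 0.0056), or 1.93-fold.

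For EF1A (Zm.14419.1.A1_s_at) the signals were 4071 and 3978 at T1 control, 5483 and 7559 at T2 control, and 5190.1 and 5162 at T2 drought. All 4 arrays at silking lay above both T1 arrays, and the rise was 0.68 ± 0.14 (log2, SE; limma adjusted p = 0.023). For elfa3, the probe set Zm.3892.2.A1_a_at had 1887 and 2021, 2567 and 3774, and 2514 and 2466 in the same order, a rise of 0.67 ± 0.14 (adjusted p = 0.025). Its other risers were Zm.3892.6.A1_x_at, by 0.62 (adjusted p = 0.024), and Zm.3892.2.A1_x_at, by 0.47 (adjusted p = 0.029). The elfa3 probe set Zm.3892.11.A1_x_at differed by 0.63 without passing (adjusted p = 0.067). The remaining eEF1A risers were known by title only. Of these, Zm.3892.8.S1_at had 2780.3 and 2738 at T1 control, 4484 and 4744 at T2 control, and 3955 and 4159 at T2 drought. Here the varieties lay close together, and the rise was 0.74 ± 0.09 (adjusted p = 0.0044). Its partners Zm.3892.8.S1_x_at and Zm.3892.8.S1_a_at rose by 0.62 and 0.58 (adjusted p = 0.0099 and 0.011).

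The elfa2 probe sets did not move alike. Zm.3892.1.A1_x_at differed by 0.40 (limma adjusted p = 0.077), Zm.3892.16.S1_a_at by 1.00 (adjusted p = 0.075) and Zm.3892.18.S1_a_at by 0.80 (adjusted p = 0.12). For Zm.3892.18.S1_a_at the signals were 153 and 148, 177 and 387, and 170.2 and 183 in the 3 conditions, so the Tietar T2 control alone stood apart. The probe sets Zm.3892.10.A1_at and Zm.3892.10.A1_x_at differed by -0.07 and -0.09, with adjusted p = 0.90 and 0.69. Differences were therefore measured on both sides of 0 within probe sets annotated to 1 gene. The probe set Zm.17271.7.A1_x_at is annotated as EF1A on the platform but titled as a wound-induced proteinase inhibitor in the study's table. It and its cluster partner Zm.17271.11.S1_at were dim and had differences of 0.54 and 0.30 (adjusted p = 0.33 and 0.79). Leaving both out kept 12 risers.

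EF2 (Zm.14407.1.A1_at), found by title, had signals of 1614 and 1828 at T1 control, 2492 and 2450.2 at T2 control, and 2352 and 2563 at T2 drought. The 4 arrays at silking lay above both T1 arrays. The rise was 0.52 ± 0.10 (log2, SE; limma adjusted p = 0.015), or 1.44-fold.

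The EF1a control probe sets lie in the 5′ part, the middle and the 3′ part of the transcript, and were tested in a fit that kept the array controls. The 5′ probe set AFFX-Zm-ef1a-5_x_at had signals of 514 and 516 at T1 control, 805 and 966 at T2 control, and 836 and 896 at T2 drought. The development differences were 0.84 and 0.78 on the 5′ probe sets, 0.76 in the middle and 0.48 on the 3′ probe set, which carries no title here. All 4 rose, with limma adjusted p = 0.0063, 0.0053, 0.0036 and 0.039. The log2 ratio of the 3′ to the 5′ signal of EF1a was 3.08 and 3.22 at T1 control, 2.82 and 2.89 at T2 control, and 2.59 and 2.47 at T2 drought. That of actin was 4.66 and 4.65, 4.57 and 4.67, and 4.28 and 4.25, and that of ubiquitin was 2.02 and 2.00, 1.77 and 1.98, and 1.25 and 1.34. That of GAPDH was 1.85 and 1.42, 1.73 and 1.88, and 1.30 and 1.28, and that of cyclophilin 2.23 and 2.13, 2.01 and 2.31, and 1.78 and 1.91. For every one of these genes both drought arrays had lower ratios than both T2 controls, whereas between T1 and T2 control both T2 ratios lay below both T1 ratios for EF1a and ubiquitin, and overlapped them for actin, GAPDH and cyclophilin. The part of these ratios along the transcript in the members' differences was not tested.

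**Figure D3:**
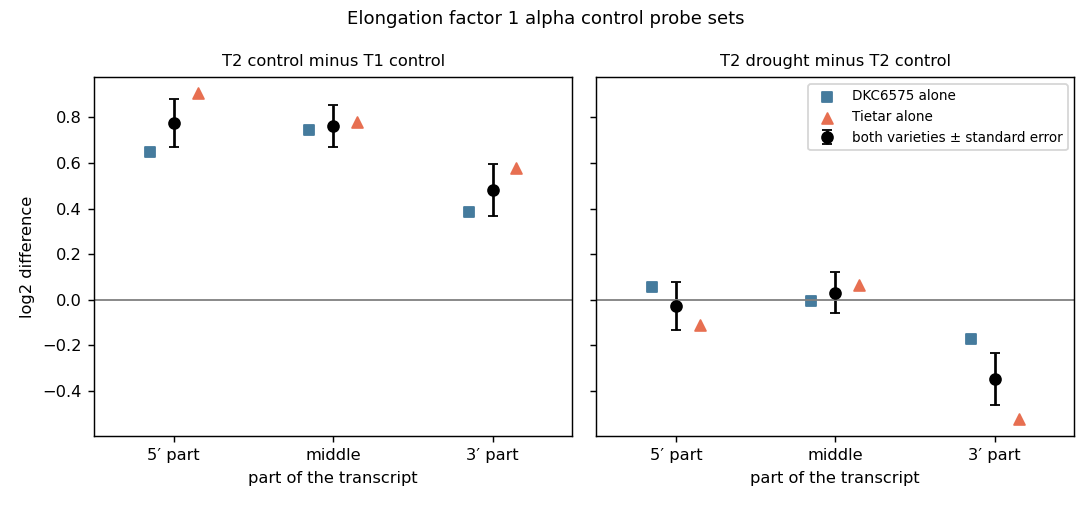
Log2 difference of 3 EF1a control probe sets by part of the transcript, over development (left) and drought (right). Black points are the difference common to both varieties with its standard error, and squares and triangles are DKC6575 and Tietar alone. Over development all 3 lie above 0, and over drought they lie at -0.03, 0.03 and -0.35 from the 5′ part to the 3′ part.

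Other genes of translation were set beside the factors. Their lists and the marker lists were found by symbol or by titles of the study's table, which holds genes selected on these same arrays. Their counts are therefore not independent evidence of a direction. Of 139 probe sets for cytosolic ribosomal proteins, which build the ribosome itself, 107 rose over development and 0 fell, with a median of 0.68. Elongation factor 1-delta, a nucleotide exchange subunit that the naming rule does not cover, rose on 1 of its probe sets (Zm.14429.1.A1_a_at) by 0.49 (limma adjusted p = 0.028), and the other (Zm.14429.2.A1_a_at) differed by -0.31 (adjusted p = 0.31). Among 4 probe sets for plastid and mitochondrial ribosomal proteins, 0 rose and 2 fell. Markers of other sources moved over the same interval. Of 17 pollen marker probe sets, 14 rose, and their summed signal went from 479 and 519 at T1 control to 4492 and 2286 at T2 control and 4875 and 2676 at T2 drought. All 3 senescence protease probe sets rose, and 2 of the 22 probe sets listed as leaf markers fell. The part of these in the factors' rise was not tested.

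Under drought at silking, 0 of the 32 probe sets passed limma at an adjusted p under 0.05 in either direction. Of all probe sets, 0.55% rose and 0.482% fell. At an unadjusted p under 0.05, 1 was higher and 8 were lower, beside 7.55% and 5.9% of all probe sets. The smallest adjusted p was 0.095. The common difference was below 0 for 26 of the 32, as for 47.4% of all probe sets, with a median of -0.24 against 0.02. It was below 0 in both varieties for 21, as for 27.3% of all. Both drought arrays lay below both T2 controls for 19 of the 32, which held for 20% of all probe sets, and above both for 2, which held for 23.6%. The medians were -0.11 in DKC6575 and -0.35 in Tietar, and whether the varieties differ could not be tested with 1 array each. The 1337 brightest probe sets of the array, those with a mean log2 of 11 or more, had a median of -0.12 under drought. Of these, 69.3% were below 0, and 323 were lower and 67 higher at limma's unadjusted p under 0.05. Both drought arrays lay below both T2 controls for 635 of them and above both for 182. Lower cuts, at a mean log2 of 6, 8 or 10 or more, gave medians of 0.03, 0.02 and -0.03. At these cuts 44.0%, 46.6% and 56.8% were below 0. The cytosolic ribosomal proteins had a median of 0.02, and the list of elongation factor 1-delta and other translation-associated proteins, with 7 probe sets, one of -0.22. The median log2 signal of 18 probe sets for hybridization spikes, control transcripts added to each sample, was 10.98 and 11.05 at T1 control. It was 10.72 and 10.79 at T2 control and 10.50 and 10.51 at T2 drought. The part of this shift in the members' differences was not tested. The 22 probe sets listed as leaf markers had a median of -0.41, with 1 that fell and 12 lower at an unadjusted p under 0.05. Their part in the members' differences was not tested.

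**Figure D4:**
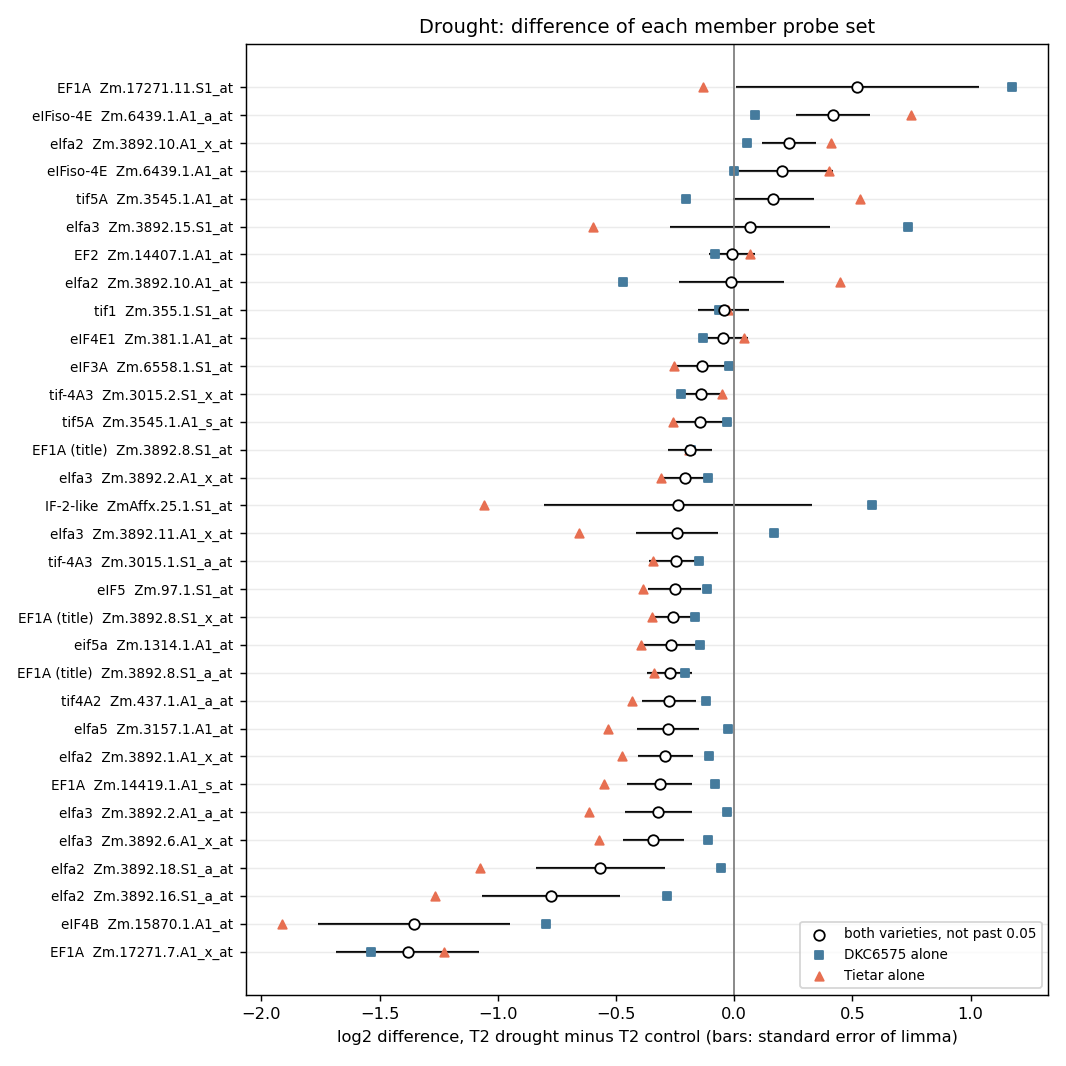
Log2 difference, T2 drought minus T2 control, of each of the 32 probe sets, with symbols as in the plot of development. No circle is filled, since none passed the test, and 26 of the 32 lie to the left of 0.

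The 2 comparisons share the T2 controls, so a high T2 control raises the development difference and lowers the drought difference of the same probe set. Leaving out the DKC6575 T2 control, 6 of the 32 passed under drought, and calls also rose over all probe sets, to 2.44% higher and 2.07% lower. These were 1 higher, eIFiso-4E (Zm.6439.1.A1_a_at, 0.72), and 5 lower, all of eEF1A, from -0.50 for elfa5 to -1.12 for elfa2 (Zm.3892.18.S1_a_at). Leaving out the Tietar T2 control, 0 passed and the median was -0.10.

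Among the initiation factors, eIFiso-4E (Zm.6439.1.A1_a_at) had the largest difference upward under drought, 0.42 ± 0.16 (log2, SE; limma adjusted p = 0.30), with both drought arrays above both T2 controls. The probe set of eIF4B was lower on both drought arrays than on both T2 controls, with a difference of -1.35 ± 0.41 (adjusted p = 0.21), but it was at or below 64 on 5 of the 6 arrays. In the eIF1, eIF3 and eIF5 group, eIF5 differed by -0.25 (adjusted p = 0.39) and tif1 by -0.05 (adjusted p = 0.91). For eIF5A, eif5a differed by -0.27 (adjusted p = 0.41) and tif5A (Zm.3545.1.A1_at) by 0.17 (adjusted p = 0.75), the latter with opposite signs in the varieties. IF-2-like differed by -0.24 ± 0.57 (adjusted p = 0.91).

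For eEF1A, 14 of 17 differed downward, with a median of -0.27. The largest difference downward was that of Zm.17271.7.A1_x_at, -1.38 ± 0.30 (log2, SE; limma adjusted p = 0.095), whose signals were 50.01 and 67.9 at T1 control, 76.04 and 94.9 at T2 control, and 26.2 and 40.6 at T2 drought. Both drought arrays were the lowest, and this is the probe set whose 2 names conflict. The largest upward was that of its dim partner Zm.17271.11.S1_at, 0.52 ± 0.51 (adjusted p = 0.74). For elfa5 the difference was -0.28 (adjusted p = 0.41) and for EF1A (Zm.14419.1.A1_s_at) -0.31 (adjusted p = 0.38). EF2 differed by -0.01, with a 95% interval from -0.23 to 0.21. On the control probe sets of EF1a, the differences were -0.05 and -0.03 in the 5′ part, 0.03 in the middle and -0.35 in the 3′ part (adjusted p from 0.25 to 0.95).

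At the 2-fold threshold of the study, which carries no test, 5 of the 32 were lower and 0 higher under drought in Tietar, where 11.1% of all probe sets were lower and 8.2% higher. In DKC6575, 1 was lower and 1 higher, beside 5.94% and 8.04%. Both are probe sets of the cluster with conflicting names, without which 0 were past it in DKC6575 and 4 were lower in Tietar. Among the 28 that reached a mean log2 of 6, 2 were lower in Tietar, Zm.3892.16.S1_a_at and Zm.3892.18.S1_a_at of elfa2, and 0 higher, where 1.59% and 2.62% of the 10383 probe sets that reached it were. In DKC6575, 0 of the 28 were past it in either direction, beside 0.568% lower and 0.674% higher. Over development, 5 of the 32 were at least 2-fold higher in Tietar and 0 lower, beside 11.4% and 8.38% of all probe sets, and 0 were past it in DKC6575, beside 8.47% higher and 9.2% lower. Of the 28, 3 were higher in Tietar, beside 2.74% higher and 2.03% lower, and 0 in DKC6575, beside 2.15% and 1.06%.

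Between the varieties, 0 of the 32 passed limma over the 3 conditions, and of all probe sets 0.0397% were higher and 0.0114% lower in Tietar. At an unadjusted p under 0.05, 3 were higher in Tietar and 0 lower, beside 3.65% and 2.34% of all probe sets, and the smallest adjusted p was 0.73. The median difference, Tietar minus DKC6575, was 0.10. Tietar lay above DKC6575 for 17 of the 32 in the T1 control, 22 in the T2 control and 16 in the T2 drought, beside 51.6%, 54.1% and 52.3% of all probe sets. For eEF1A this was 12 of 17 in the T1 control, 15 of 17 in the T2 control and 9 of 17 under drought. The median differences were 0.12, 0.38 and 0.0005. Many of these probe sets share sequence and all were read on 1 array per variety and condition, so they are not replicates.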

How the data were processed

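Leaf RNA was hybridised to 6 Affymetrix maize arrays, 1 per variety and condition. The methods name RMA and Partek, but the deposited values are linear intensities. They have a 2% trimmed mean of about 500 on every array and medians that differ between arrays. They were used as given, on the log2 scale. The platform annotation gives 1 gene symbol for 1452 probe sets. From the study's supplementary table, held here only in part, gene titles alone were used, and its columns of the authors' fold changes were not.

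The fit was variety plus condition with lmFit and eBayes (trend = TRUE) in limma 3.58.1 (R 4.3.3), adjusted by Benjamini-Hochberg over 17621 probe sets, without 113 array controls. The fit was tested on simulated data. Members, lists and the trend were chosen with earlier results of these data known. Named are all members past the threshold, and per role group the member of highest mean signal. The largest rise and fall of each role group are named for development and drought. The same naming was planned for the variety contrast but is not given here. The remaining members named were chosen after their values were seen. Alternatives were loess, median centring, filters, fold thresholds, no trend, no block, 1 probe set per gene, and each array left out. Summaries used Python 3.11.15, pandas 2.3.3 and matplotlib 3.10.9.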

Additional observations from a re-analysis of the deposited data

Results flagged for a closer look

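One elfa3 probe set (Zm.3892.15.S1_at) moved in opposite directions under drought in the varieties. Its log2 difference, T2 drought minus T2 control, was 0.73 in DKC6575 and -0.60 in Tietar, from signals of 61.4 to 102 and of 143 to 94.3. The difference between the varieties was not tested, since there was 1 array for each. Its mean log2 signal was 6.43, close to the level of 6. Opposite signs were common: both varieties were below 0 for 21 of the 32 and above 0 for 2. Over all 17621 probe sets, both were below 0 for 4804 and above 0 for 5353. The dim IF-2-like probe set also had opposite signs, 0.58 in DKC6575 and -1.06 in Tietar.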

How the results depend on the processing

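None of the 12 rises changed sign under any alternative run. All 12 kept their call with the filter at a mean log2 of 6 (with the trend), cyclic loess, array controls kept, no block, or either drought array left out. Without the trend 0 were called, with the filter and no trend 7 of 28, with median centring 7 of 32, and with 1 probe set per gene 7 of 17. Leaving out 1 array gave 0 (with the DKC6575 or the Tietar T1 control left out) to 17 calls. There were 17, all higher, with the DKC6575 or the Tietar drought array left out, 16 higher and 1 lower (eIFiso-4E) without the DKC6575 T2 control, where 11 of the 12 were kept, and 8 without the Tietar T2 control. The development median was 0.35 after median centring, and 0.37 to 0.53 with 1 array left out. Median centring moved the median of all probe sets over development by -0.129, and called 776 higher and 1126 lower of all probe sets, against 1098 and 593. Under drought, 0 to 6 were called and the median was -0.34 to -0.10 with 1 array left out. Members 2-fold changed under drought in Tietar numbered 5, and 9 at 1.5-fold, 1 at 3-fold, and 2 with the filter, with signals below 64 set to 64, or against both controls; in DKC6575 they numbered 2, and 4 at 1.5-fold and 0 at 3-fold, with the filter or the floor. Over development in Tietar they numbered 5, and 14 at 1.5-fold, 1 at 3-fold and 3 with the filter or the floor; in DKC6575, 0, and 8 at 1.5-fold. The main fit pairs the arrays by variety, and no further replicate block could be fitted with 1 array per group. The alternative that left out the conflicting EF1A names was added after the data were seen; it left 12 called over development and 0 under drought, and both medians as they were, but took the DKC6575 drought count at 2-fold from 2 to 0 and that of Tietar from 5 to 4. With 39.6% to 41.6% of signals under 64, dim members limit all fold counts.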
